A study of Homo sapiens with 24 samples.

Results

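The 35 genes described here encode aminoacyl-tRNA synthetases, the enzymes that load amino acids onto transfer RNAs. They were chosen by gene symbol from the read-count table, which holds 14493 genes. All 35 were in the table and all 35 passed the filter on low counts in each fit. They comprise 19 genes for cytosolic enzymes and 16 genes, with symbols ending in 2, for mitochondrial enzymes. Other synthetase genes were not analysed here.

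The study asked whether inhibitors of fatty acid synthesis push cancer cells into therapy-induced senescence (TIS), and RNA-seq was run on SKBr3 cells, a HER2-amplified human breast cancer line. Each of the 6 drugs was given to the cells of 3 libraries, with the medium and drug renewed on day 3 and RNA taken on day 7: ND-646 (250 nmol/L), which inhibits acetyl-CoA carboxylase, TVB-3166 (250 nmol/L), which inhibits fatty acid synthase, palbociclib (Palboclib in the labels, 1 µmol/L), bleomycin (10 µmol/L), doxorubicin (10 nmol/L) and alisertib (500 nmol/L). Bleomycin and doxorubicin damage DNA, alisertib inhibits Aurora A kinase and palbociclib inhibits cyclin-dependent kinases. The controls were 3 libraries of untreated proliferating cells, called day-0 here, and 3 of untreated cells kept to day 7. The labels of the day-7 cells name no refeed on day 3. By the labels, drug and renewed medium cannot be told apart in comparisons with day-7 cells. All groups share 1 cell line and no genetic change was introduced. Nothing in the labels says that the 3 replicates came from separate cultures, so p-values measure only the spread between these libraries, which may be technical.

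The 24 libraries held 29405121 to 44316330 counted reads, and the lowest count of any of the 35 genes in any library was 153. Levels are given as CPM, read counts scaled by library size and TMM factors, and differences as log2 fold changes with their standard errors. Of 7 SKBr3 and luminal markers, 6 were in the table, with ERBB2 at a group mean of 5688 CPM or more in every group. The epithelial gene CDH1 was not in the table. Of 8 leukocyte, endothelial and fibroblast markers, 2 were in the table, VWF at group means of 1.10 CPM or less and COL1A1 at 12.3 CPM or less. The lowest count of any gene in the table was 1, so no listed gene lacked reads in any library. Absence from the table therefore need not mean absence from all libraries. In bulk RNA a lower level can come from less RNA per cell or from fewer cells of one kind, and these cannot be told apart.

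Each synthetase recognises 1 amino acid and its transfer RNAs, apart from EPRS1, which joins the enzymes for glutamate and proline. Charging is the step that fixes the genetic code. Human cells run translation in the cytosol and in the mitochondrial matrix, and most amino acids have a separate nuclear gene for the enzyme of each compartment. GARS1 and KARS1 are exceptions, since each encodes both enzymes. Several cytosolic synthetases sit together in the multisynthetase complex, and FARSA and FARSB form the single phenylalanine enzyme. Many cytosolic synthetase genes are known targets of ATF4, the transcription factor of the integrated stress response, while their mitochondrial counterparts are not usually listed among them.

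ATF4 acts with C/EBP partners at composite sites whose core can be written TGATGNAA, where N is any base, and promoter windows were therefore searched for these letters. The windows came from RefSeq (GRCh38.p14) and run from 250 bases before to 50 bases after a gene's start. A window was found for 30 of the 35 genes. The letters TGATGNAA, on either strand, occurred in a window of 7 of the 16 cytosolic genes with a window (43.75%) and of 1 of the 14 mitochondrial genes with one (7.143%). Some genes have more than 1 window, and the shares count genes. Among the 10485 genes of the count table with a window the share was 2.632%. The stricter form TGATGCAA, a subset of the first, occurred for 6 cytosolic genes (37.5%), for no mitochondrial gene and for 0.696% of genes of the table. The 6 stretches that follow, of 40 bases each, are read 5′ to 3′ on the gene's own strand. Among the genes with a match, theirs had the largest mean absolute log2 fold change over the 6 drugs. The match is in capitals, and where it reads TTGCATCA or TTTCATCA it lies on the opposite strand.
AARS1, chr16:70289670-70289709, minus strand: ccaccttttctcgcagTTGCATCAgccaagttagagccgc
CARS1, chr11:3057418-3057457, minus strand: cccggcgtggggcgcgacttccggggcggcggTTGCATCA
YARS2, chr12:32756071-32756110, minus strand: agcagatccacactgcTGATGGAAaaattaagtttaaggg
MARS1, chr12:57488032-57488071, plus strand: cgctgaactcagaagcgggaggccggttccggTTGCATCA
GARS1, chr7:30594829-30594868, plus strand: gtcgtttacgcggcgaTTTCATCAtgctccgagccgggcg
IARS1, chr9:92293698-92293737, minus strand: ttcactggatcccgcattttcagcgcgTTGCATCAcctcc
AARS1 loads alanine, CARS1 cysteine, GARS1 glycine, MARS1 methionine and IARS1 isoleucine in the cytosol, and YARS2 loads tyrosine in mitochondria. The AARS1 match began 187 bases before the start and the YARS2 match 197 bases before it, while those of GARS1 and IARS1 began 33 and 13 bases before it and those of CARS1 and MARS1 reached across it. TARS1 and NARS1, for threonine and asparagine, held TGATGCAA 3 and 15 bases past the start. A match is a description of letters and not evidence of binding. LARS1, YARS1, VARS1, VARS2 and AARS2 had no window.

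In untreated day-0 cells the cytosolic genes had the higher levels. Per kilobase of the canonical transcript, the day-0 level had a median of 79.7 CPM per kb over the 19 cytosolic genes (range 18.4 to 166) and of 14.0 over the 16 mitochondrial genes (range 3.58 to 111). GARS1 stood highest at 166 ± 7.67 CPM per kb (SD, n = 3), followed by KARS1 at 141 ± 18.3 and QARS1, for glutamine, at 122 ± 6.88. The isoleucine gene IARS2 was the mitochondrial exception at 111 ± 10.9 CPM per kb, and PARS2, for proline, stood lowest at 3.58 ± 0.612. The classes overlapped, since FARSB, at 18.4, stood below 6 mitochondrial genes.

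Relative to day-0 cells, cytosolic synthetase genes moved in both directions under all 6 drugs, and mitochondrial genes moved mainly down. With ND-646, 9 cytosolic genes rose and 5 fell, while 1 mitochondrial gene rose and 7 fell. With TVB-3166 the counts were 8 and 7 in the cytosolic class, and 1 and 10 in the mitochondrial class. With bleomycin they were 8 and 5, and 1 and 11. Here and in what follows a gene rose or fell if its p, from the quasi-likelihood test of edgeR and adjusted over all genes tested by the Benjamini-Hochberg method, was under 0.05. The ND-646 counts depended on single libraries. Without ND-646 replicate 1, 14 mitochondrial genes were called in place of 8, and 19 of the 35 genes fell in place of 12. Without day-0 replicate 3, 5 of the 35 rose in place of 10, and without day-0 replicate 2, 6 did.

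Alisertib, doxorubicin and palbociclib gave fewer rises. Alisertib raised 3 cytosolic genes and lowered 7, and lowered 6 mitochondrial genes with none raised. Doxorubicin raised 1 cytosolic gene and lowered 6, and palbociclib raised 3 and lowered 7. In both, 1 mitochondrial gene rose and 6 fell. Untreated cells of day 7, taken when the treated cells were but with no refeed in their labels, gave fewer calls as the reference. Relative to them 5 cytosolic genes rose with each of ND-646, TVB-3166 and bleomycin, while 3, 7 and 4 fell. In the mitochondrial class 8, 10 and 10 fell, and 1 gene rose, with bleomycin. No gene of either class rose with alisertib, doxorubicin or palbociclib, while 2, 4 and 5 cytosolic and 1, 3 and 6 mitochondrial genes fell. In the paragraphs on single genes a call is against day-0 cells unless day-7 cells are named.

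Large shares of all genes also changed, and the counts have to be read against them. In the comparison with day-0 cells, 19.1% of all genes tested rose and 18.8% fell under ND-646, 27.4% and 27.7% under TVB-3166, and 24.1% and 25.3% under bleomycin. Under alisertib 17.7% rose and 19.6% fell, under doxorubicin 23.7% and 24.8%, and under palbociclib 26.0% and 27.2%. The median log2 fold change of all genes lay between -0.01 and 0.02 in all 6 comparisons. For the mitochondrial class the median was -0.43 under ND-646, -0.35 under TVB-3166, -0.52 under bleomycin, -0.22 under alisertib, -0.25 under doxorubicin and -0.17 under palbociclib. For the cytosolic class it was 0.33, 0.21 and 0.19 under the first 3 drugs and -0.08, -0.07 and -0.07 under the other 3. All 6 comparisons use the same day-0 libraries.

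**Figure D1:**
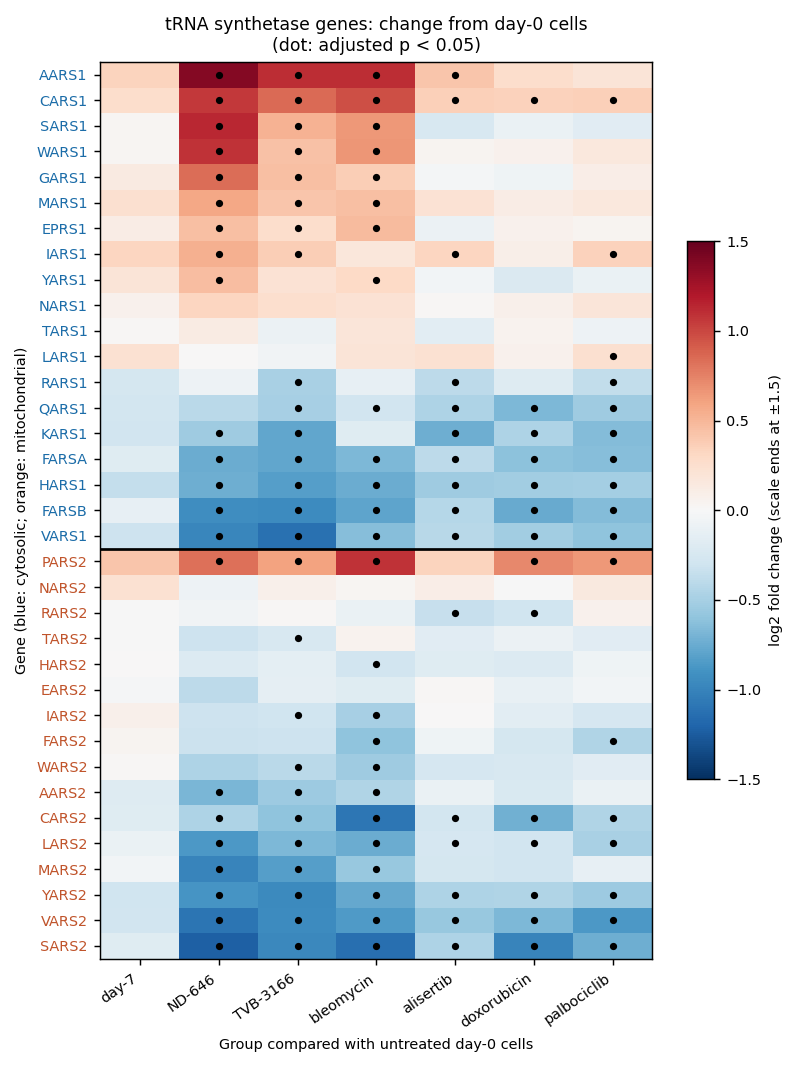
Each row is one of the 35 synthetase genes and each column a group compared with untreated day-0 cells, with colour for the log2 fold change and a dot where the edgeR adjusted p was under 0.05. The upper cytosolic rows split into genes that were raised by ND-646, TVB-3166 and bleomycin and genes that were lowered by most drugs, and the lower mitochondrial rows are mostly blue with PARS2 as the red row.

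AARS1, the alanine enzyme, had the largest rise of the family. Its level was 271, 247 and 229 CPM in day-0 replicates 1, 2 and 3, 735, 618 and 612 CPM with ND-646, 522, 528 and 553 CPM with TVB-3166 and 474, 698 and 437 CPM with bleomycin. In the other groups it was 279, 368 and 290.3 CPM in untreated day-7 cells, 324, 352 and 321 CPM with alisertib, 288, 329 and 276 CPM with doxorubicin and 257, 338 and 259 CPM with palbociclib. Every ND-646, TVB-3166 and bleomycin library stood above every library of the other 5 groups, and bleomycin replicate 2 stood far above the other 2. The log2 fold change from day-0 cells was 1.38 ± 0.16 (edgeR adjusted p = 0.000268) with ND-646, 1.11 ± 0.10 (adjusted p = 6.11e-06) with TVB-3166, 1.11 ± 0.18 (adjusted p = 0.000825) with bleomycin and 0.42 ± 0.09 (adjusted p = 0.00659) with alisertib. With doxorubicin it was 0.27 ± 0.10 (edgeR adjusted p = 0.0515) and with palbociclib 0.19 ± 0.12 (adjusted p = 0.198), neither past the threshold. The alisertib rise was not called against day-7 cells, at 0.11.

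CARS1, the cysteine enzyme, was the only cytosolic gene that rose with all 6 drugs relative to day-0 cells, and 3 of these rises were not called relative to day-7 cells. It was at 88.9, 83.7 and 81.9 CPM in day-0 cells, 218, 160.2 and 159 CPM with ND-646, 159.6, 148 and 151 CPM with TVB-3166 and 153, 193 and 151 CPM with bleomycin. Untreated day-7 cells held 83.6, 125 and 95.6 CPM, the alisertib libraries 112, 114 and 101 CPM, the doxorubicin libraries 112, 108 and 102 CPM and the palbociclib libraries 109, 126 and 92.5 CPM. All 18 drug-treated libraries stood above the 3 day-0 libraries, but day-7 replicate 2 stood above 8 of the 9 alisertib, doxorubicin and palbociclib libraries. The log2 fold changes ran from 0.35 ± 0.08 (edgeR adjusted p = 0.00668) with doxorubicin to 1.06 ± 0.16 (adjusted p = 0.00111) with ND-646. The palbociclib call (0.36 ± 0.11, edgeR adjusted p = 0.0181) was lost without palbociclib replicate 1 or 2. With day-7 cells as the reference the log2 fold change was 0.12 with alisertib, 0.10 with doxorubicin and 0.12 with palbociclib, none past the threshold. With ND-646, TVB-3166 and bleomycin CARS1 rose there too, by 0.81, 0.60 and 0.72.

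SARS1, which loads serine and also supplies the tRNA of selenocysteine, rose with ND-646, TVB-3166 and bleomycin alone among the 6 comparisons. It was at 213, 204 and 192 CPM in day-0 cells, 597, 374 and 379 CPM with ND-646, 289, 296 and 290.02 CPM with TVB-3166 and 294, 387 and 269 CPM with bleomycin. It was at 180.5, 223 and 214 CPM in day-7 cells, at 163, 189 and 164 CPM with alisertib, 184, 209 and 169.9 CPM with doxorubicin and 163, 211 and 167 CPM with palbociclib. ND-646 replicate 1 was far above the other ND-646 libraries, and the latter 3 groups lay near or under the day-0 level. The log2 fold change was 1.13 ± 0.20 (edgeR adjusted p = 0.00266) with ND-646, 0.53 ± 0.09 (adjusted p = 0.000482) with TVB-3166, 0.65 ± 0.14 (adjusted p = 0.00464) with bleomycin and -0.24 ± 0.09 (adjusted p = 0.0652) with alisertib, which did not pass.

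GARS1 encodes the glycine enzyme of both compartments. Its level was 427, 394 and 396 CPM in day-0 cells, 907, 645 and 639 CPM with ND-646, 560.4, 567 and 528 CPM with TVB-3166 and 505, 561 and 502 CPM with bleomycin. It was 374, 527 and 420.1 CPM in day-7 cells, 383, 439.8 and 372 CPM with alisertib, 373, 425 and 356 CPM with doxorubicin and 402, 516 and 392 CPM with palbociclib. Again ND-646 replicate 1 was highest, and day-7 replicate 2 and palbociclib replicate 2 stood above 2 of the bleomycin libraries. The log2 fold change was 0.83 ± 0.18 (edgeR adjusted p = 0.00683) with ND-646, 0.45 ± 0.10 (adjusted p = 0.00208) with TVB-3166 and 0.37 ± 0.11 (adjusted p = 0.0166) with bleomycin, the last lost without bleomycin replicate 2, day-0 replicate 2 or day-0 replicate 3. It lay between -0.07 and 0.10 with the other 3 drugs, past no threshold. The bleomycin rise was not called against day-7 cells (0.26).

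WARS1, for tryptophan, is known both as an ATF4 target and as an interferon-inducible gene. It was at 97.7, 94.2 and 91.6 CPM in day-0 cells, 206, 197 and 202 CPM with ND-646, 110.1, 140.1 and 134 CPM with TVB-3166 and 127, 178 and 141 CPM with bleomycin. It was at 83.1, 112 and 91.4 CPM in day-7 cells, at 85.1, 114 and 91.5 CPM with alisertib, 88.8, 114 and 90.4 CPM with doxorubicin and 85.6, 133 and 97.3 CPM with palbociclib. The ND-646 libraries were tight and stood above all other libraries, and replicate 2 was the highest of its group in each of the other 6 groups taken on day 7. The log2 fold change was 1.08 ± 0.13 (edgeR adjusted p = 0.000306) with ND-646, 0.44 ± 0.11 (adjusted p = 0.0042) with TVB-3166 and 0.66 ± 0.13 (adjusted p = 0.0027) with bleomycin, against 0.04 with alisertib, 0.06 with doxorubicin and 0.15 with palbociclib.

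A further 4 cytosolic genes rose with ND-646 by less. MARS1, for methionine, rose by 0.58 ± 0.14 (edgeR adjusted p = 0.0109) with ND-646, 0.42 ± 0.10 (adjusted p = 0.00367) with TVB-3166 and 0.45 ± 0.11 (adjusted p = 0.00785) with bleomycin. MARS1 shares 355 annotated exonic bases (5.05% of its own) with DDIT3 on the opposite strand, and DDIT3 rose by 3.61 ± 0.23 (edgeR adjusted p = 1.67e-05) with ND-646, 3.23 ± 0.21 (adjusted p = 8.3e-07) with TVB-3166 and 2.86 ± 0.28 (adjusted p = 8.45e-05) with bleomycin. The strand setting of the counting is not given in the sources used here, and the part of DDIT3 reads in the MARS1 rise was not tested. IARS1 rose with 4 drugs, ND-646 (0.54 ± 0.14, edgeR adjusted p = 0.0184), TVB-3166 (0.37 ± 0.10, adjusted p = 0.00906), alisertib (0.32 ± 0.10, adjusted p = 0.0331) and palbociclib (0.35 ± 0.10, adjusted p = 0.0165). EPRS1, the fused enzyme for glutamate and proline, rose with ND-646 (0.45 ± 0.15, edgeR adjusted p = 0.0424), TVB-3166 (0.26 ± 0.10, adjusted p = 0.0475) and bleomycin (0.48 ± 0.15, adjusted p = 0.0209). YARS1, for tyrosine, rose with ND-646 (0.46 ± 0.16, edgeR adjusted p = 0.0487) and bleomycin (0.29 ± 0.11, adjusted p = 0.0468). The ND-646 calls of IARS1, EPRS1 and YARS1, the TVB-3166 call of EPRS1 and the bleomycin call of YARS1 were each lost in 5 of the 6 fits that left out 1 library. The bleomycin call of EPRS1 and the alisertib call of IARS1 were lost in 3, the ND-646 call of MARS1 without day-0 replicate 2 or 3, and the palbociclib call of IARS1 without palbociclib replicate 2.

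Relative to day-7 cells, MARS1, IARS1 and YARS1 rose with none of the 6 drugs and EPRS1 with bleomycin alone. MARS1 was at 0.36 with ND-646, 0.19 with TVB-3166 and 0.24 with bleomycin on the log2 scale. IARS1 was at 0.23 with ND-646, 0.06 with TVB-3166, 0.02 with alisertib and 0.05 with palbociclib. For EPRS1 the values were 0.36 with ND-646, 0.17 with TVB-3166 and 0.39 with bleomycin, and for YARS1 0.28 with ND-646 and 0.12 with bleomycin. YARS1 fell there with doxorubicin (-0.39).

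The phenylalanine enzyme went the other way in both of its subunits. FARSB, the beta subunit, was at 131, 120.2 and 122 CPM in day-0 cells, 70.1, 68.7 and 57.7 CPM with ND-646, 65.2, 68.7 and 59.6 CPM with TVB-3166 and 70.1, 70.9 and 73.9 CPM with bleomycin. It was at 110.4, 115 and 114 CPM in day-7 cells, 93.7, 96.6 and 86.99 CPM with alisertib, 69.5, 78.3 and 71.7 CPM with doxorubicin and 81.1, 79.6 and 77.6 CPM with palbociclib. All 18 treated libraries lay below all 6 untreated ones, with alisertib nearest to them. FARSB fell by 0.94 ± 0.14 on the log2 scale with ND-646 (edgeR adjusted p = 0.00108), by 0.94 ± 0.09 with TVB-3166 (adjusted p = 1.23e-05), and by least with alisertib, 0.43 ± 0.08 (adjusted p = 0.00328). All 6 falls were called against day-7 cells as well, from -0.81 with TVB-3166 to -0.28 with alisertib.

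FARSA, the alpha subunit, was at 95.4, 99.4 and 84.7 CPM in day-0 cells, 64.8, 52.5 and 50.8 CPM with ND-646, 54.7, 52.4 and 55.6 CPM with TVB-3166 and 59.96, 56.8 and 58.1 CPM with bleomycin. It was at 87.00, 71.8 and 84.9 CPM in day-7 cells, 72.7, 69.2 and 70.5 CPM with alisertib, 59.03, 63.3 and 58.4 CPM with doxorubicin and 61.2, 62.8 and 55.2 CPM with palbociclib. Treated libraries lay below the day-0 libraries throughout, while day-7 replicate 2 fell among the alisertib libraries. The log2 fold change lay between -0.78 ± 0.09 (edgeR adjusted p = 5.23e-05) with TVB-3166 and -0.40 ± 0.09 (adjusted p = 0.00611) with alisertib, and all 6 calls passed. The alisertib fall was not called against day-7 cells (-0.18).

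HARS1, for histidine, and VARS1, for valine, also fell with all 6 drugs relative to day-0 cells, and with fewer of them relative to day-7 cells. HARS1 was at 167, 163 and 154 CPM in day-0 cells, 110.4, 87.4 and 97.3 CPM with ND-646, 92.2, 87.4 and 92.1 CPM with TVB-3166 and 101, 82.4 and 104 CPM with bleomycin. It was at 122, 124 and 131 CPM in day-7 cells, 109, 112 and 113 CPM with alisertib, 105, 121 and 109 CPM with doxorubicin and 116, 111 and 113 CPM with palbociclib. Untreated day-7 cells already stood below day-0 cells without overlap, at -0.35 ± 0.08 (edgeR adjusted p = 0.0715), a change that DESeq2 called (adjusted p = 0.00844) and edgeR did not. With the drugs the log2 fold change lay between -0.83 ± 0.09 (edgeR adjusted p = 1.84e-05) with TVB-3166 and -0.51 ± 0.08 (adjusted p = 0.000461) with palbociclib. Against day-7 cells HARS1 fell with TVB-3166 (-0.47) and bleomycin (-0.38), and did not pass with ND-646 (-0.36), alisertib (-0.16), doxorubicin (-0.15) or palbociclib (-0.14). Annotated HARS1 exons share 1090 bases (7.7%) with WDR55 on the opposite strand.

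VARS1 was at 359, 267 and 246 CPM in day-0 cells, 147, 156 and 143 CPM with ND-646, 133, 132 and 136 CPM with TVB-3166 and 208, 171 and 181 CPM with bleomycin. It was at 254, 210.3 and 230.5 CPM in day-7 cells, 237, 203 and 216 CPM with alisertib, 199, 212 and 193 CPM with doxorubicin and 196, 185 and 192 CPM with palbociclib. Day-0 replicate 1 was far above the other day-0 libraries, and the 6 libraries with ND-646 or TVB-3166 were the lowest of all 24. Against day-0 cells the log2 change was -0.98 ± 0.17 (edgeR adjusted p = 0.00259) with ND-646, -1.12 ± 0.13 (adjusted p = 4.26e-05) with TVB-3166 and -0.41 ± 0.13 (adjusted p = 0.0331) with alisertib, the smallest of the 6 falls and one lost in 4 of the 6 fits that left out 1 library. Relative to day-7 cells VARS1 was at -0.07 with alisertib and -0.18 with doxorubicin, neither called, and fell with the other 4 drugs, from -0.79 with TVB-3166 to -0.27 with palbociclib.

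KARS1, which encodes the lysine enzyme of both compartments, had another order of groups. It was at 322, 269 and 252 CPM in day-0 cells, 227, 194 and 167 CPM with ND-646, 167, 163 and 161 CPM with TVB-3166 and 249, 262 and 229 CPM with bleomycin. It was at 224, 239.9 and 221 CPM in day-7 cells, 177, 168 and 161 CPM with alisertib, 201, 218 and 186 CPM with doxorubicin and 181, 191 and 164 CPM with palbociclib. Bleomycin overlapped the day-0 range, and TVB-3166 and alisertib had the lowest means. The fitted log2 fold change was -0.77 ± 0.11 (edgeR adjusted p = 0.000115) with TVB-3166, -0.74 ± 0.10 (adjusted p = 0.000687) with alisertib and -0.18 ± 0.12 (adjusted p = 0.23) with bleomycin, which did not pass. The ND-646 call (-0.53 ± 0.17, edgeR adjusted p = 0.0337) was lost in 5 of the 6 fits that left out 1 library. Neither it nor the doxorubicin call held against day-7 cells (-0.23 and -0.15).

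QARS1, for glutamine, was at 316, 299 and 282 CPM in day-0 cells, 302, 181 and 204 CPM with ND-646, 230.3, 193 and 210.4 CPM with TVB-3166 and 265, 243 and 221 CPM with bleomycin. It was at 249, 241 and 244 CPM in day-7 cells, 226, 207 and 218 CPM with alisertib, 186, 189.6 and 180.4 CPM with doxorubicin and 205, 211 and 205 CPM with palbociclib. The doxorubicin libraries had the lowest mean, and ND-646 replicate 1 sat inside the day-0 range. It fell with all drugs but ND-646, by most with doxorubicin (-0.68 ± 0.08, edgeR adjusted p = 0.000195). With ND-646 it stood at -0.40 ± 0.20 (edgeR adjusted p = 0.141). The bleomycin fall (-0.29 ± 0.11, edgeR adjusted p = 0.0457) was lost in 5 of the 6 fits that left out 1 library, and against day-7 cells the log2 fold change was 0.0034. The falls with TVB-3166 (-0.21) and alisertib (-0.16) were not called there either.

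RARS1, for arginine, fell with TVB-3166 (-0.49 ± 0.10, edgeR adjusted p = 0.00215), alisertib (-0.39 ± 0.10, adjusted p = 0.0103) and palbociclib (-0.36 ± 0.10, adjusted p = 0.00975). NARS1, TARS1 and LARS1, for asparagine, threonine and leucine, moved least. NARS1 and TARS1 passed in none of the 6 comparisons, and LARS1 rose with palbociclib alone (0.25 ± 0.09, edgeR adjusted p = 0.0456), a call lost in 5 of the 6 fits that left out 1 library. With day-7 cells as the reference RARS1 fell with TVB-3166 alone (-0.21), and LARS1 did not pass with palbociclib (0.04) but fell with TVB-3166 (-0.26).

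**Figure D2:**
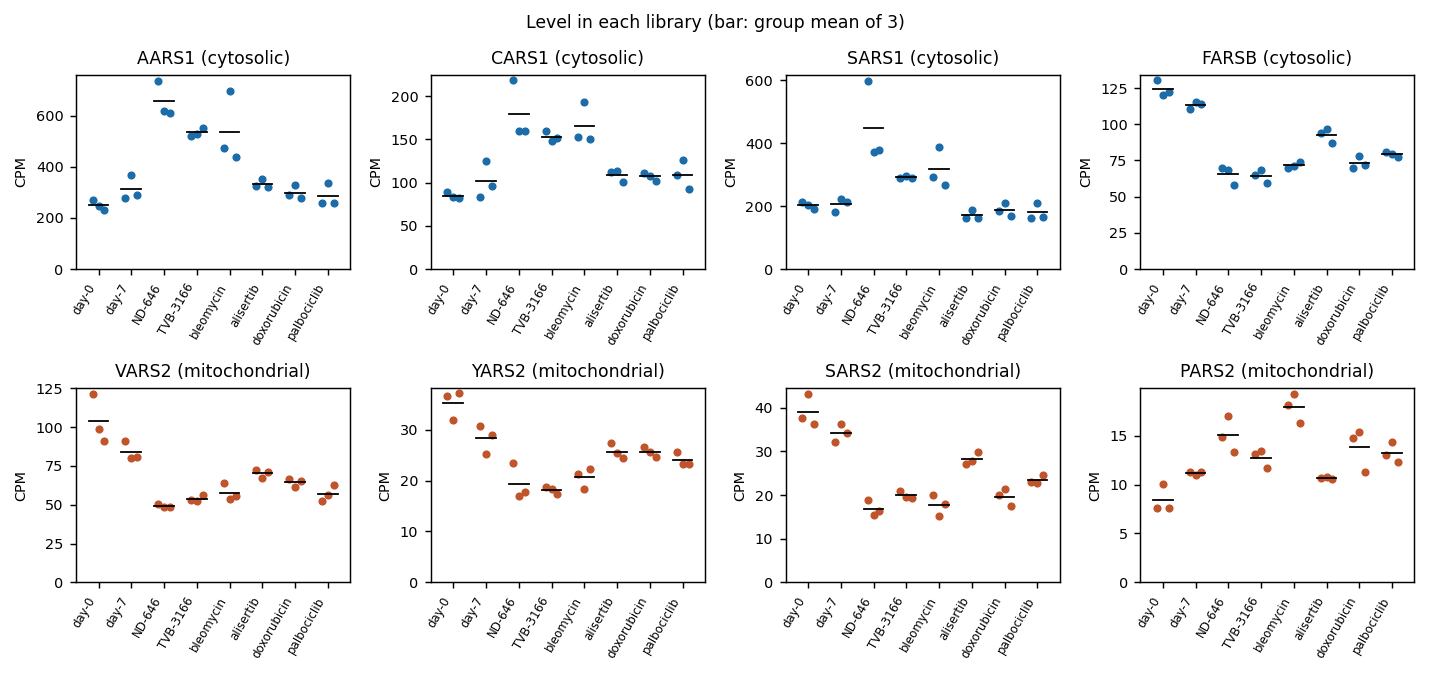
The 8 panels plot CPM on a linear axis from 0 for each of the 24 libraries, with a bar at each group's mean of 3. AARS1, CARS1 and SARS1 stand highest with ND-646, TVB-3166 and bleomycin, FARSB, VARS2, YARS2 and SARS2 stand highest in the untreated groups, and PARS2 stands highest with bleomycin, at 18.1, 19.3 and 16.3 CPM.

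Among the mitochondrial genes, SARS2, for serine, had the largest mean change over the 6 drugs. It was at 37.6, 43.2 and 36.3 CPM in day-0 cells, 18.9, 15.4 and 16.3 CPM with ND-646, 20.97, 19.6 and 19.3 CPM with TVB-3166 and 20.1, 15.2 and 17.9 CPM with bleomycin. It was at 32.2, 36.2 and 34.1 CPM in day-7 cells, 27.1, 27.8 and 29.9 CPM with alisertib, 19.9, 21.3 and 17.4 CPM with doxorubicin and 22.9, 22.8 and 24.7 CPM with palbociclib. All treated libraries were below all untreated ones. It fell by 1.22 ± 0.15 on the log2 scale with ND-646 (edgeR adjusted p = 0.000465), by 1.14 ± 0.14 with bleomycin (adjusted p = 0.000221), by 0.99 ± 0.11 with doxorubicin (adjusted p = 0.000138), and by least with alisertib, 0.47 ± 0.10 (adjusted p = 0.00541). The alisertib fall did not pass against day-7 cells (-0.26).

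VARS2, for valine, was at 122, 98.7 and 91.4 CPM in day-0 cells, 50.7, 48.4 and 48.4 CPM with ND-646, 52.9, 52.3 and 56.2 CPM with TVB-3166 and 63.9, 53.8 and 55.3 CPM with bleomycin. It was at 91.3, 80.4 and 80.9 CPM in day-7 cells, 72.6, 66.97 and 70.9 CPM with alisertib, 66.7, 61.7 and 65.6 CPM with doxorubicin and 52.4, 56.6 and 62.4 CPM with palbociclib. Again the treated and untreated libraries did not overlap, and ND-646 gave the lowest values. Relative to day-0 cells the log2 change was -1.09 ± 0.15 (edgeR adjusted p = 0.000766) with ND-646, -0.86 ± 0.12 (adjusted p = 0.000177) with palbociclib and -0.57 ± 0.11 (adjusted p = 0.00314) with alisertib, the smallest fall. All 6 falls were called against day-7 cells too, from -0.79 with ND-646 to -0.25 with alisertib.

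YARS2, for tyrosine, was at 36.7, 31.9 and 37.2 CPM in day-0 cells, 23.5, 16.9 and 17.7 CPM with ND-646, 18.8, 18.3 and 17.4 CPM with TVB-3166 and 21.3, 18.3 and 22.2 CPM with bleomycin. It was at 30.8, 25.2 and 28.9 CPM in day-7 cells, 27.3, 25.3 and 24.3 CPM with alisertib, 26.6, 25.6 and 24.5 CPM with doxorubicin and 25.6, 23.3 and 23.3 CPM with palbociclib. The TVB-3166 libraries were low and tight, and 1 of the 3 day-7 libraries lay among the alisertib and doxorubicin values. YARS2 fell with all 6 drugs, from -0.95 ± 0.11 (edgeR adjusted p = 3.13e-05) with TVB-3166 to -0.45 ± 0.10 (adjusted p = 0.00429) with doxorubicin. Only the falls with ND-646 (-0.56), TVB-3166 (-0.64) and bleomycin (-0.45) were called relative to day-7 cells, while alisertib (-0.13), doxorubicin (-0.12) and palbociclib (-0.23) did not pass. It is the only mitochondrial gene with TGATGNAA in a window.

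CARS2, for cysteine, fell most with the DNA-damaging drugs. It was at 103, 110.3 and 98.96 CPM in day-0 cells, 88.5, 68.3 and 71.9 CPM with ND-646, 73.2, 65.2 and 66.1 CPM with TVB-3166 and 55.9, 43.1 and 47.3 CPM with bleomycin. It was at 100.05, 84.1 and 89.1 CPM in day-7 cells, 89.2, 85.8 and 82.9 CPM with alisertib, 64.3, 66.2 and 57.1 CPM with doxorubicin and 79.4, 74.5 and 73.98 CPM with palbociclib. The bleomycin libraries were the lowest of all 24. Its log2 fold change was -1.09 ± 0.12 (edgeR adjusted p = 0.000119) with bleomycin, -0.72 ± 0.09 (adjusted p = 0.000223) with doxorubicin, -0.61 ± 0.09 (adjusted p = 0.000258) with TVB-3166 and -0.28 ± 0.08 (adjusted p = 0.0233) with alisertib. The ND-646 call (-0.46 ± 0.15, edgeR adjusted p = 0.0343) was lost in 5 of the 6 fits that left out 1 library, and the alisertib call in 3. Both missed the threshold against day-7 cells (-0.27 and -0.07).

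LARS2, for leucine, was at 49.1, 48.5 and 51.4 CPM in day-0 cells, 26.6, 26.98 and 29.1 CPM with ND-646, 31.9, 29.6 and 31.7 CPM with TVB-3166 and 33.3, 23.2 and 32.2 CPM with bleomycin. It was at 48.2, 45.6 and 44.4 CPM in day-7 cells, 43.6, 39.5 and 42.6 CPM with alisertib, 40.1, 37.6 and 43.5 CPM with doxorubicin and 33.8, 33.5 and 38.9 CPM with palbociclib. ND-646, TVB-3166 and bleomycin gave the lowest values, and bleomycin replicate 2 the lowest of all. LARS2 fell with all 6 drugs, between -0.86 ± 0.13 (edgeR adjusted p = 0.00142) with ND-646 and -0.25 ± 0.08 (adjusted p = 0.0424) with alisertib. The alisertib call was lost in each of the 6 fits that left out 1 library. The doxorubicin call (-0.29 ± 0.09, edgeR adjusted p = 0.0261) was lost in 4. Neither was called against day-7 cells, at -0.12 and -0.17.

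MARS2 and AARS2, for methionine and alanine, fell with ND-646, TVB-3166 and bleomycin only among the 6 comparisons. MARS2 was at 29.3, 35.3 and 30.97 CPM in day-0 cells, 12.4, 18.8 and 17.2 CPM with ND-646, 17.9, 19.9 and 15.9 CPM with TVB-3166 and 21.7, 22.5 and 20.2 CPM with bleomycin. It was at 34.00, 27.2 and 31.1 CPM in day-7 cells, 30.8, 25.1 and 23.7 CPM with alisertib, 27.6, 23.2 and 27.1 CPM with doxorubicin and 31.1, 27.7 and 28.7 CPM with palbociclib. The ND-646, TVB-3166 and bleomycin libraries lay below all others, and the day-7, alisertib and palbociclib ranges overlapped the day-0 range. On the log2 scale the change was -0.99 ± 0.19 (edgeR adjusted p = 0.00421) with ND-646, -0.83 ± 0.12 (adjusted p = 0.000212) with TVB-3166 and -0.56 ± 0.13 (adjusted p = 0.0047) with bleomycin.

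AARS2 was at 36.3, 30.6 and 25.4 CPM in day-0 cells, 17.9, 19.4 and 20.4 CPM with ND-646, 19.9, 20.7 and 22.7 CPM with TVB-3166 and 23.9, 21.2 and 22.2 CPM with bleomycin. It was at 28.6, 25.5 and 26.1 CPM in day-7 cells, 29.9, 27.4 and 28.7 CPM with alisertib, 27.5, 24.1 and 26.5 CPM with doxorubicin and 27.9, 27.8 and 30.6 CPM with palbociclib. The ND-646 and TVB-3166 libraries lay below all libraries outside the bleomycin group, and the day-0 libraries spread widely, with replicate 1 highest. The change from day-0 cells, in log2 units, was -0.69 ± 0.17 (edgeR adjusted p = 0.0137) with ND-646, -0.54 ± 0.14 (adjusted p = 0.00603) with TVB-3166 and -0.45 ± 0.15 (adjusted p = 0.0279) with bleomycin. The ND-646 call was lost without day-0 replicate 1, and the bleomycin call in 4 of the 6 fits that left out 1 library and against day-7 cells (-0.24).

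PARS2, the mitochondrial proline enzyme, was the only mitochondrial gene that rose in any of the 6 comparisons with day-0 cells, and 1 of its 5 rises was called relative to day-7 cells. It was at 7.58, 10.1 and 7.63 CPM in day-0 cells, 14.8, 17.04 and 13.3 CPM with ND-646, 13.1, 13.4 and 11.7 CPM with TVB-3166 and 18.1, 19.3 and 16.3 CPM with bleomycin. It was at 11.3, 10.97 and 11.3 CPM in day-7 cells, 10.6, 10.8 and 10.5 CPM with alisertib, 14.8, 15.3 and 11.3 CPM with doxorubicin and 13.01, 14.4 and 12.3 CPM with palbociclib. All treated libraries stood above all day-0 libraries, as did the 3 day-7 libraries, and bleomycin had the highest mean. Against day-0 cells the log2 change was 1.09 ± 0.17 (edgeR adjusted p = 0.00069) with bleomycin, 0.82 ± 0.20 (adjusted p = 0.0104) with ND-646, 0.60 ± 0.16 (adjusted p = 0.00675) with TVB-3166, 0.72 ± 0.17 (adjusted p = 0.00608) with doxorubicin and 0.65 ± 0.15 (adjusted p = 0.00481) with palbociclib. With alisertib it was 0.34 ± 0.15 (edgeR adjusted p = 0.0979), which did not pass, although the 3 libraries lay above the day-0 libraries. The ND-646 call was lost without day-0 replicate 3. With day-7 cells as the reference PARS2 rose with bleomycin (0.69), and it did not pass with ND-646 (0.42), TVB-3166 (0.19), doxorubicin (0.33) or palbociclib (0.25).

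The other 8 mitochondrial genes changed in fewer comparisons. IARS2 fell with TVB-3166 (-0.29 ± 0.10, edgeR adjusted p = 0.0278) and bleomycin (-0.50 ± 0.12, adjusted p = 0.00661), and so did WARS2, for tryptophan, at -0.40 ± 0.13 (adjusted p = 0.0196) and -0.54 ± 0.15 (adjusted p = 0.0128). FARS2, the phenylalanine enzyme, fell with bleomycin (-0.60 ± 0.16, edgeR adjusted p = 0.0123) and palbociclib (-0.46 ± 0.14, adjusted p = 0.021), and RARS2, for arginine, with alisertib (-0.34 ± 0.12, adjusted p = 0.0478) and doxorubicin (-0.30 ± 0.11, adjusted p = 0.0469). HARS2, for histidine, fell with bleomycin alone (-0.29 ± 0.09, edgeR adjusted p = 0.0269) and TARS2, for threonine, with TVB-3166 alone (-0.24 ± 0.09, adjusted p = 0.0357). EARS2 and NARS2, for glutamate and asparagine, passed in none, at -0.39 ± 0.15 (edgeR adjusted p = 0.0727) and -0.08 ± 0.14 (adjusted p = 0.706) with ND-646. Of these calls, the bleomycin falls of IARS2 and FARS2 held in every fit that left out 1 library, and each of the others was lost in at least 1. The RARS2 falls were not called against day-7 cells (-0.31 and -0.27), and those of the other 5 genes were. Some falls were called only there, those of IARS2 with ND-646 (-0.37) and palbociclib (-0.30) and of WARS2 with ND-646 (-0.46).

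HARS1 and HARS2 are neighbours on chromosome 5 and start 85 bases apart on opposite strands, at positions 140691370 and 140691455 of GRCh38.p14. HARS1 fell with all 6 drugs and HARS2 with 1, relative to day-0 cells. With TVB-3166 the log2 fold change was -0.83 for HARS1 and -0.15 for HARS2, and with palbociclib -0.51 and -0.06. Their annotated exons overlap by 108 bases, and the difference between both genes was not tested.

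Pairs were formed by symbol, a cytosolic gene ending in 1 with the mitochondrial gene of the same letters ending in 2, which gave 13 amino acids. Phenylalanine (FARSA and FARSB with FARS2), glutamate (EPRS1 with EARS2) and proline (EPRS1 with PARS2) also had genes for both compartments. They were left out of the pairs by this rule. In the comparison with day-0 cells the cytosolic gene had the higher log2 fold change in 11 of 13 pairs with ND-646, 10 with TVB-3166 and 11 with bleomycin, with median gaps of 0.87, 0.66 and 0.94. With alisertib, doxorubicin and palbociclib it was higher in 10, 12 and 11 pairs, with median gaps of 0.29, 0.24 and 0.29. In 5 pairs with ND-646, 6 with TVB-3166 and 6 with bleomycin the cytosolic gene rose and the mitochondrial gene fell, both past the threshold. Alisertib and doxorubicin gave 1 such pair each, and palbociclib 2. Relative to day-7 cells the median gaps were 0.60 with ND-646, 0.41 with TVB-3166, 0.57 with bleomycin, 0.07 with alisertib, 0.13 with doxorubicin and 0.20 with palbociclib. Such pairs then numbered 3, 4 and 3 with the first 3 drugs and 0 with the other 3.

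The serine pair was the widest, with a gap of 2.36 under ND-646, from 1.13 for SARS1 to -1.22 for SARS2. The alanine pair came next under ND-646 at 2.07, from 1.38 for AARS1 to -0.69 for AARS2. Under bleomycin the widest was the cysteine pair at 2.06, from 0.97 for CARS1 to -1.09 for CARS2. The histidine pair ran the other way under ND-646, TVB-3166 and bleomycin. The arginine pair did so under TVB-3166, with a gap of -0.51, while its gap was only -0.02 under ND-646 and -0.03 under bleomycin. The valine pair fell together, at -0.98 for VARS1 and -1.09 for VARS2 under ND-646, and its gap under TVB-3166 was -0.17. These gaps are descriptions of pairs that share libraries, and no test was made of them.

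A single value per library was taken from both classes, with no test. In each library the log2 level of each gene was taken relative to its day-0 mean, and the median over mitochondrial genes was subtracted from the median over cytosolic genes. This difference was 0.71, 0.76 and 0.86 in the ND-646 libraries, 0.43, 0.55 and 0.58 with TVB-3166 and 0.71, 0.77 and 0.64 with bleomycin. It was 0.09, -0.05 and -0.01 in day-0 cells, -0.07, 0.32 and 0.09 in day-7 cells, 0.03, 0.12 and 0.07 with alisertib, 0.10, 0.36 and 0.05 with doxorubicin, and 0.03, 0.25 and 0.05 with palbociclib. All 9 libraries with ND-646, TVB-3166 or bleomycin stood above all other 15. Replicate 2 was the highest library of the day-7, alisertib, doxorubicin and palbociclib groups, and its cytosolic median was the highest of its group in all 4. Its mitochondrial median was also the lowest of its group with doxorubicin (-0.31 against -0.22 and -0.23), in day-7 cells (-0.08 against -0.05 and -0.05) and with palbociclib (-0.18 against -0.16 and -0.16). The cause was not tested.

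As means ± SD (n = 3), the difference was 0.78 ± 0.07 with ND-646, 0.52 ± 0.08 with TVB-3166, 0.71 ± 0.07 with bleomycin, 0.17 ± 0.17 with doxorubicin, 0.11 ± 0.12 with palbociclib, 0.07 ± 0.04 with alisertib, 0.11 ± 0.20 in day-7 cells and 0.01 ± 0.07 in day-0 cells. The mitochondrial side gave -0.50 ± 0.08 with bleomycin, -0.41 ± 0.15 with ND-646 and -0.35 ± 0.04 with TVB-3166. The cytosolic side gave 0.37 ± 0.08 with ND-646, 0.21 ± 0.03 with bleomycin and 0.17 ± 0.07 with TVB-3166. With the mean over genes in place of the median, TVB-3166 dropped to 0.36, and the values with ND-646 and bleomycin were 0.65 and 0.53.

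**Figure D3:**
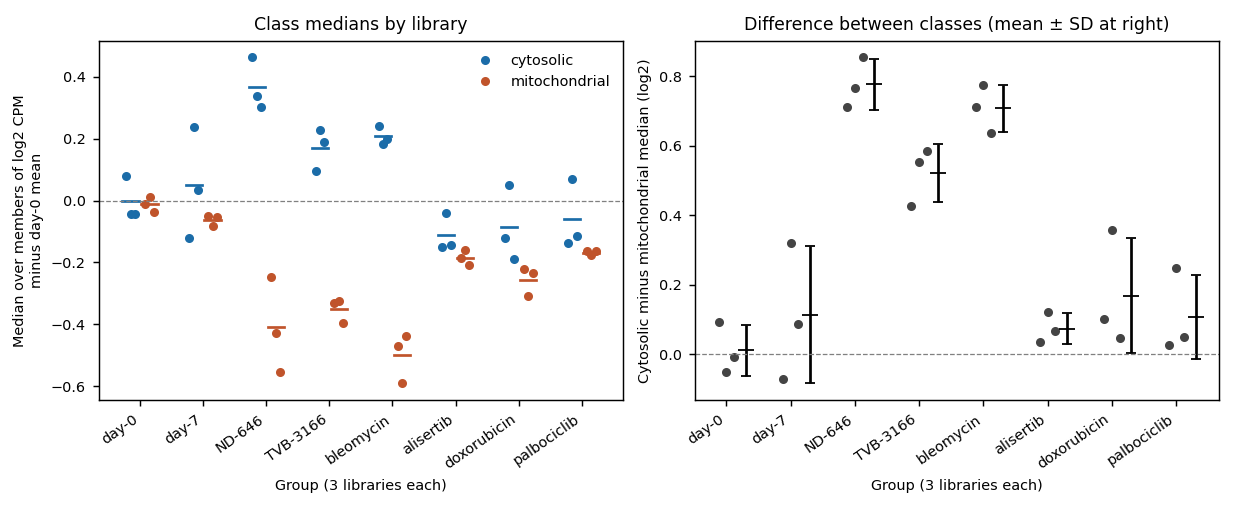
On the left, each point is the median over the cytosolic (blue) or mitochondrial (orange) genes of the log2 CPM minus the day-0 mean in a library, with a line at the group mean. On the right, each point is the cytosolic minus the mitochondrial median of a library, with the mean ± SD of 3 beside it. The points of ND-646, TVB-3166 and bleomycin lie between 0.43 and 0.86 and all others between -0.07 and 0.36.

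The lipogenesis inhibitors were also set directly against the other 4 drugs, in a fit of the 18 treated libraries that uses no control. In this contrast 10 cytosolic genes were higher and 5 lower with ND-646 and TVB-3166, and 8 mitochondrial genes were lower and none higher. Over all genes tested 26.1% were higher and 24% lower. SARS1 had the largest difference (0.81 ± 0.10, edgeR adjusted p = 5.94e-06), followed by AARS1 (0.76 ± 0.09, adjusted p = 3.55e-06), GARS1 (0.56 ± 0.08, adjusted p = 3.4e-05) and WARS1 (0.55 ± 0.10, adjusted p = 0.000217). CARS1, YARS1, MARS1, EPRS1, IARS1 and NARS1 were higher by 0.18 to 0.46. These differences are against a mean of 4 drugs and do not set the lipogenesis inhibitors apart from bleomycin. The bleomycin group mean was above that of TVB-3166 for SARS1, AARS1, WARS1, CARS1, YARS1, MARS1 and EPRS1. It was below that of TVB-3166 for GARS1, IARS1 and NARS1.

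Of the genes lower with the lipogenesis inhibitors, MARS2 (-0.59 ± 0.09, edgeR adjusted p = 3.55e-05) and VARS1 (-0.49 ± 0.05, adjusted p = 1.28e-06) had the largest differences. AARS2 (-0.38 ± 0.06, edgeR adjusted p = 4.39e-05), YARS2 (-0.35 ± 0.08, adjusted p = 0.0011) and LARS2 (-0.31 ± 0.07, adjusted p = 0.00193) followed. FARSB, LARS1, HARS1 and FARSA made up the rest of the cytosolic genes, at -0.27 to -0.17. The mean of the other 4 drugs includes bleomycin, and 2 genes that bleomycin moved strongly, CARS2 (0.12 ± 0.07, edgeR adjusted p = 0.17) and PARS2 (0.03 ± 0.08, adjusted p = 0.819), did not pass here. The calls of EARS2, FARSA, HARS1, NARS1 and TARS2, 5 of the 23, were lost in at least 1 fit that left out a library.

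**Figure D4:**
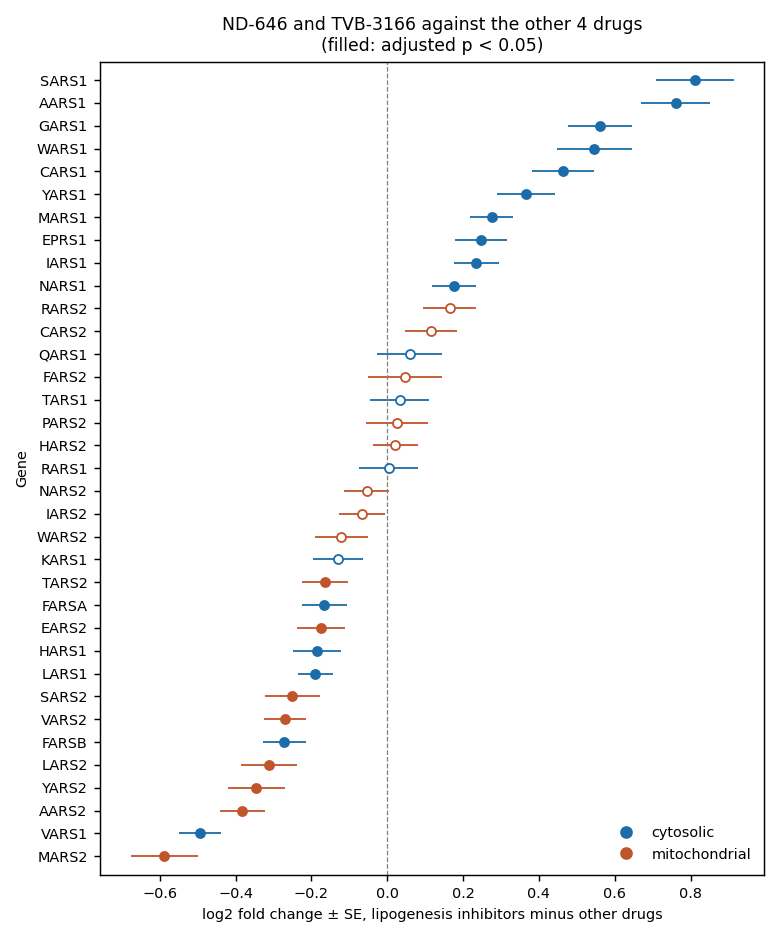
The points give the log2 fold change ± SE of each of the 35 genes between the 2 lipogenesis inhibitors and the other 4 drugs, blue for cytosolic and orange for mitochondrial, filled where the edgeR adjusted p was under 0.05. SARS1 and AARS1 lie farthest right, at 0.81 and 0.76, and MARS2 and VARS1 farthest left, at -0.59 and -0.49.

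Between ND-646 and TVB-3166 no gene of the family passed in edgeR, 4 had an unadjusted p under 0.05, and DESeq2 called 1. Over all genes, 0.198% were higher with ND-646 and 0.520% lower. All 19 cytosolic genes had a log2 fold change above 0, from 0.01 to 0.64, with WARS1 at 0.64 ± 0.13 (edgeR adjusted p = 0.069) and SARS1 at 0.61 ± 0.19 (adjusted p = 0.201). For some of them this sign leaned on ND-646 replicate 1. QARS1 was at 302, 181 and 204 CPM in ND-646 replicates 1, 2 and 3, and at 230.3, 193 and 210.4 CPM with TVB-3166. FARSA was at 64.8, 52.5 and 50.8 CPM with ND-646, and at 54.7, 52.4 and 55.6 CPM with TVB-3166. The mitochondrial genes lay between -0.25 and 0.23. Libraries of the same number deviated together in these 2 groups (correlations of 0.21 to 0.38 across genes), and with the replicate number as a block WARS1 was called (log2 0.65, edgeR adjusted p = 0.0498). Without ND-646 replicate 1, the high library of SARS1 and GARS1, 2 genes were called, WARS1 (0.63, adjusted p = 0.00537) and SARS1 (0.36, adjusted p = 0.0143).

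Bleomycin and doxorubicin both damage DNA, and a direct comparison was added after their values against day-0 cells had been seen. In it 8 cytosolic genes were higher with bleomycin and none lower, and no mitochondrial gene passed (7 had an unadjusted p under 0.05). Over all genes tested, 6.54% were higher and 5.53% lower. AARS1 (0.85 ± 0.17, edgeR adjusted p = 0.0198), SARS1 (0.76 ± 0.15, adjusted p = 0.0179), CARS1 (0.63 ± 0.11, adjusted p = 0.0146) and WARS1 (0.61 ± 0.15, adjusted p = 0.0319) had the largest differences, and YARS1, GARS1, QARS1 and MARS1 were higher by 0.34 to 0.52. The count was 0 without doxorubicin replicate 1 or 3, and 3 without bleomycin replicate 2. The doses differ, 10 µmol/L against 10 nmol/L, so that drug and dose cannot be told apart.

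Untreated day-7 cells were also set against day-0 cells. No gene of the family passed in edgeR, 10 had an unadjusted p under 0.05, and DESeq2 called HARS1 and QARS1, both lower. Over all genes 0.389% rose and 0.198% fell. With day-7 in place of day-0 cells as the reference, ND-646 raised 5 of the 35 genes and lowered 11 (all genes, 17.2% and 17.1%), TVB-3166 raised 5 and lowered 17 (25.4% and 26.1%) and bleomycin raised 6 and lowered 14 (22.4% and 23.2%). Alisertib lowered 3 (9.49%, with 9.55% of all genes raised), doxorubicin 7 (21.5%, with 21.9% raised) and palbociclib 11 (22.9%, with 22.0% raised), and these 3 raised none. Library numbers paired the bleomycin and the alisertib libraries with the day-7 libraries (correlations of 0.11 to 0.22), and with that block bleomycin raised 8 and lowered 14 genes and alisertib lowered 6.

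Across all 8 groups, 33 of the 35 genes differed in the test for any difference, against 81.6% of all genes. TARS1 and NARS2 did not. The widest ranges of group means were those of AARS1, 249 ± 20.8 CPM in day-0 cells and 655 ± 69.5 with ND-646 (SD, n = 3), and SARS1, 172 ± 15.1 CPM with alisertib and 450.0 ± 127 with ND-646. SARS2 was the widest of the mitochondrial genes, 16.9 ± 1.81 CPM with ND-646 and 39.0 ± 3.65 in day-0 cells.

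The genes of the multisynthetase complex did not move as one. Of its 7 enzyme genes among the 35, MARS1, IARS1 and EPRS1 rose and KARS1 fell with ND-646, and with TVB-3166 the same 3 rose while KARS1, QARS1 and RARS1 fell. Bleomycin raised 2 and lowered 1, alisertib raised 1 and lowered 3, doxorubicin raised 0 and lowered 2, and palbociclib raised 2 and lowered 3. Among all genes tested 17.7% to 27.4% rose and 18.8% to 27.7% fell over the 6 drugs. When day-7 cells were the reference none of the 7 passed with ND-646, and with TVB-3166 none rose and KARS1, RARS1 and LARS1 fell. The scaffold genes AIMP1, AIMP2 and EEF1E1 rose in none of the 6 comparisons. EEF1E1 fell with TVB-3166 (-0.75 ± 0.17, edgeR adjusted p = 0.0027), bleomycin (-0.70 ± 0.18, adjusted p = 0.0089), alisertib (-0.51 ± 0.17, adjusted p = 0.0363) and palbociclib (-0.47 ± 0.16, adjusted p = 0.0305). AIMP1 fell with 4 drugs, by most with palbociclib (-0.34 ± 0.09, edgeR adjusted p = 0.00693), and AIMP2 with palbociclib (-0.42 ± 0.09, adjusted p = 0.00301). The EEF1E1 falls with alisertib and palbociclib did not pass against day-7 cells (-0.22 and -0.19).

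Of the 19 cytosolic genes, 13 are commonly listed as ATF4 targets. Among the 13, 9 rose and 1 fell with ND-646 (median log2 0.54), 8 rose and 1 fell with TVB-3166 (0.37) and with bleomycin (0.37). Alisertib raised 3, doxorubicin 1 and palbociclib 3, each with 1 fall, and VARS1 was the gene that fell with all 6 drugs. Of all genes tested 19.1% rose with ND-646, 27.4% with TVB-3166 and 24.1% with bleomycin. The shares that rose were 17.7% with alisertib, 23.7% with doxorubicin and 26.0% with palbociclib, and 18.8% to 27.7% fell over the 6 drugs. Of the 6 cytosolic genes outside the list, FARSA, FARSB, HARS1, KARS1, QARS1 and RARS1, none rose with any drug. Of these 6, 4 fell with ND-646 (median -0.63) and with bleomycin (-0.48), 5 with doxorubicin (-0.57) and all 6 with TVB-3166 (-0.78), alisertib (-0.44) and palbociclib (-0.59). Against day-7 cells 5 of the 13 rose with each of ND-646 (median 0.36), TVB-3166 (0.19) and bleomycin (0.24), and 1, 2 and 1 fell. None rose with alisertib, doxorubicin or palbociclib, where 0, 1 and 1 fell. Of the 6 genes outside the list 2 to 5 fell. Among all genes tested 17.2%, 25.4% and 22.4% rose there with ND-646, TVB-3166 and bleomycin, and 9.49% to 26.1% fell over the 6 drugs. The list was drawn up with earlier results of these data known and is no independent support.

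The next list holds ATF4 and 19 genes of its pathway outside the family. Of the 20, 17 rose with ND-646 (median log2 1.65), 16 with TVB-3166 (1.16) and 14 with bleomycin (0.89), with no fall. With alisertib 10 rose (0.45), with doxorubicin 11 rose and 2 fell (0.45), and with palbociclib 12 rose and 1 fell (0.45). The share of all genes tested that rose was 17.7% to 27.4% over the 6 drugs. In untreated day-7 cells 2 of the 20 rose. With day-7 cells as the reference 17 rose with ND-646 (1.26), 14 rose and 1 fell with TVB-3166 (0.66), and 12 rose and 1 fell with bleomycin (0.71). Then 5 rose with alisertib (0.12), 7 rose and 6 fell with doxorubicin (0.20), and 6 rose and 1 fell with palbociclib (0.09). ATF4 itself was at group means of 230 ± 30.4 CPM in day-0 cells, 358 ± 40.8 in day-7 cells, 781 ± 286 with ND-646 and 576 ± 49.2 with TVB-3166 (SD, n = 3). Its log2 fold change was 1.75 ± 0.25 (edgeR adjusted p = 0.000963) with ND-646, 1.33 ± 0.12 (adjusted p = 6.25e-06) with TVB-3166, 0.74 ± 0.14 (adjusted p = 0.00206) with bleomycin and 0.44 ± 0.11 (adjusted p = 0.00933) with doxorubicin, the smallest. Relative to day-7 cells ATF4 rose with ND-646 (1.11) and TVB-3166 (0.69), and did not pass with bleomycin (0.11), alisertib (-0.08), doxorubicin (-0.19) or palbociclib (-0.08). ATF4 is controlled largely through translation, so its RNA is only part of its level.

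DDIT3, the stress-induced factor CHOP, rose with all 6 drugs, from 1.70 ± 0.24 (edgeR adjusted p = 0.000186) with palbociclib to 3.61 ± 0.23 (adjusted p = 1.67e-05) with ND-646. DDIT4, an inhibitor of mTORC1 signalling, rose by 3.00 ± 0.36 (edgeR adjusted p = 0.000372) with ND-646 and 1.05 ± 0.32 (adjusted p = 0.0211) with doxorubicin. NUPR1, a stress-induced chromatin protein, rose by 2.60 ± 0.15 (edgeR adjusted p = 3.65e-07) with TVB-3166 and 1.25 ± 0.16 (adjusted p = 0.000194) with doxorubicin. SLC7A11, the cystine importer, rose by 2.76 ± 0.22 (edgeR adjusted p = 4.48e-05) with ND-646 and 0.65 ± 0.15 (adjusted p = 0.00844) with alisertib. All 6 DDIT3 rises were called against day-7 cells as well, from 0.59 with palbociclib to 2.50 with ND-646. Those of DDIT4 and NUPR1 with doxorubicin (0.07 and 0.32) and of SLC7A11 with alisertib (-0.12) were not. TGATGNAA occurred in a window of 3 of the 16 genes of this pathway list that had one (18.75%).

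Of the 7 cytosolic genes with TGATGNAA in a window, 5 rose and none fell with ND-646, 5 with TVB-3166, 4 with bleomycin, 3 with alisertib, 1 with doxorubicin and 2 with palbociclib. Of the 9 cytosolic genes whose window did not hold it, 3 rose and 4 fell with ND-646, 3 and 6 with TVB-3166 and 3 and 4 with bleomycin. SARS1, WARS1 and EPRS1 are the 3 that rose in these comparisons without the letters in the window searched. Of the 3 cytosolic genes with no window, YARS1 rose and VARS1 fell with ND-646, and LARS1 did neither. In the comparison with day-7 cells 3 of the 7 rose with ND-646, 3 with TVB-3166, 2 with bleomycin and none with the other 3 drugs. Of the 9 without the letters 2 rose and 2 fell there with ND-646, 2 and 5 with TVB-3166 and 3 and 3 with bleomycin. Among all genes tested 17.2%, 25.4% and 22.4% rose there with ND-646, TVB-3166 and bleomycin. Against day-0 cells these shares were 19.1%, 27.4% and 24.1%.

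Interferon-response genes were counted beside WARS1, which interferon gamma is known to induce. Of 8 such genes outside the family, all 8 rose with bleomycin (median log2 3.04) and 7 with doxorubicin (2.38), while 6 rose and 1 fell with palbociclib (1.25). With ND-646 (1.06) and with TVB-3166 (0.76) 4 of them rose, and 2 with alisertib (0.09). Among all genes tested 17.7% to 27.4% rose with the 6 drugs. When compared with day-7 cells all 8 rose with bleomycin and doxorubicin, 5 with palbociclib, 3 with ND-646, 4 with TVB-3166 and 3 with alisertib. IRF1, a transcription factor of the interferon gamma response, rose by 2.40 ± 0.19 (edgeR adjusted p = 1.93e-05) with doxorubicin and by 2.01 ± 0.22 (adjusted p = 0.000245) with ND-646, where WARS1 stood at 0.06 and 1.08. The guanylate-binding protein gene GBP1 rose by 3.06 ± 0.43 (edgeR adjusted p = 0.000355) with doxorubicin and GBP2 by 2.34 ± 0.32 (adjusted p = 0.000307), while IRF9, part of the type I interferon response, rose with all 6 drugs, from 1.13 ± 0.29 (adjusted p = 0.00712) with palbociclib to 3.80 ± 0.28 (adjusted p = 2.53e-05) with bleomycin. The palbociclib rise of IRF9 was not called against day-7 cells (0.28).

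Of 4 genes that act on mitochondrial aminoacyl-tRNAs, none rose and 2 fell with ND-646, 3 with TVB-3166, 1 with alisertib and 2 with each of the other drugs. Over the same comparisons 18.8% to 27.7% of all genes tested fell. Mitochondria have no tRNA synthetase of their own for glutamine, and its tRNA is charged through the amidotransferase of GATB, GATC and QRSL1. GATB fell with all 6 drugs, from -1.09 ± 0.18 (edgeR adjusted p = 0.00179) with ND-646 to -0.31 ± 0.10 (adjusted p = 0.0283) with alisertib. QRSL1 fell with ND-646 (-0.43 ± 0.14, edgeR adjusted p = 0.0354), TVB-3166 and palbociclib, GATC with TVB-3166, bleomycin (-0.30 ± 0.10, adjusted p = 0.034) and doxorubicin, and MTFMT, which formylates the initiator tRNA, passed in none. Against day-7 cells the GATB falls with alisertib (-0.21) and palbociclib (-0.30) and all 3 GATC falls, at -0.21 to -0.15, were not called.

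Of 9 mitochondrial translation factors, 2 fell with ND-646, 4 with TVB-3166, 3 with bleomycin, 5 with alisertib, 4 with doxorubicin and 3 with palbociclib. In each of bleomycin, alisertib and palbociclib 1 rose. For comparison, 18.8%, 27.7%, 25.3%, 19.6%, 24.8% and 27.2% of all genes tested fell with the 6 drugs, in the order given. TUFM, which brings charged tRNA to the ribosome, fell with all 6 drugs, between -0.67 ± 0.18 (edgeR adjusted p = 0.019) with ND-646 and -0.33 ± 0.10 (adjusted p = 0.0136) with palbociclib. TSFM, its exchange factor, fell with all but ND-646, by most with bleomycin (-0.65 ± 0.11, edgeR adjusted p = 0.000909). MTRF1, a release factor, rose with alisertib (0.71 ± 0.19, edgeR adjusted p = 0.0139) and bleomycin (0.58 ± 0.20, adjusted p = 0.036), and MTIF2, for initiation, fell by most with palbociclib (-0.47 ± 0.11, adjusted p = 0.00388). Relative to day-7 cells 1 factor fell with alisertib and 2 with doxorubicin, where 9.49% and 21.5% of all genes tested fell. The TUFM falls with alisertib (-0.20), doxorubicin (-0.23) and palbociclib (-0.18), the TSFM fall with alisertib (-0.23) and the MTRF1 rises with alisertib (0.21) and bleomycin (0.07) were not called there.

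Of 7 cytosolic elongation factors, 1 rose with each drug and 1 to 4 fell, while 17.7% to 27.4% of all genes tested rose and 18.8% to 27.7% fell. EEF1A2, one of a pair of genes for the factor that delivers charged tRNA, rose with all 6 drugs, from 0.31 ± 0.11 (edgeR adjusted p = 0.0273) with TVB-3166 to 1.85 ± 0.13 (adjusted p = 1.44e-05) with bleomycin. EIF5A fell with all 6, from -0.98 ± 0.11 (edgeR adjusted p = 3.11e-05) with TVB-3166 to -0.57 ± 0.11 (adjusted p = 0.00166) with palbociclib. EEF1D fell by 0.77 ± 0.11 (edgeR adjusted p = 0.000228) and EEF1B2 fell by 0.39 ± 0.10 (adjusted p = 0.00718) with palbociclib, both being subunits of the exchange factor. The TVB-3166 rise of EEF1A2 was not called against day-7 cells (0.08), and the EIF5A falls were.

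Of 14 genes for tRNA processing and export, 6 fell and 1 rose with ND-646, 10 fell and 1 rose with TVB-3166, and 6 fell and 1 rose with bleomycin. With alisertib and doxorubicin 5 fell and 2 rose, and with palbociclib 6 fell and 2 rose. Among all genes tested 18.8% to 27.7% fell and 17.7% to 27.4% rose with the 6 drugs. XPOT, the exporter of tRNA from the nucleus, rose with all 6 drugs, with ND-646 by 1.12 ± 0.14 (edgeR adjusted p = 0.000532), bleomycin by 1.07 ± 0.16 (adjusted p = 0.000564) and alisertib by 0.33 ± 0.09 (adjusted p = 0.0185). ELAC2, which trims tRNA 3′ ends in nucleus and mitochondria, fell with all 6, from -1.01 ± 0.13 (edgeR adjusted p = 0.000532) with ND-646 to -0.33 ± 0.09 (adjusted p = 0.0138) with alisertib. Of the splicing endonuclease genes, TSEN54 fell by 0.72 ± 0.11 (edgeR adjusted p = 0.000672) and TSEN34 fell by 0.70 ± 0.10 (adjusted p = 0.000585) with bleomycin. Against day-7 cells 1 gene of this list fell with alisertib and 3 with doxorubicin, and none rose with either. Of all genes tested 9.49% and 21.5% fell there. XPOT and ELAC2 were called there with ND-646, TVB-3166 and bleomycin, and with alisertib, doxorubicin and palbociclib they stood at 0.06, 0.19 and 0.16 for XPOT and -0.02, -0.14 and -0.07 for ELAC2.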

How the data were processed

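RNA of 24 SKBr3 libraries in 8 groups of 3 was sequenced and processed by the authors, whose methods name GRCh37, HISAT2, StringTie and DESeq2. The deposited table holds raw read counts per gene, with no normalization by the authors beyond counting; the strand setting and annotation release are not given in the sources used here. The labels name a stranded mRNA library kit and the study's methods a total RNA kit. Groups came from the sample labels.

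Each pair of groups was fitted separately with edgeR 4.0.16 in R 4.3.3, after filterByExpr (minimum count 10) and TMM scaling, with the 2-sided quasi-likelihood F test. P-values were adjusted by the Benjamini-Hochberg method over all genes tested, and an adjusted p under 0.05 was called. SE is the fitted log2 fold change over the root of F. CPM per library used a TMM scaling over all 24 libraries. The class medians used log2 CPM with a prior count of 2. The code was tested on counts simulated from the ND-646 and day-0 libraries. There edgeR called 6 of 100 genes changed 1.5-fold and 58 of 100 changed 2-fold. DESeq2 called 23 and 84, with 25 false calls against 3 in edgeR. A gene that did not pass may therefore still have changed.

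Alternatives were DESeq2 1.42.0, RLE size factors, other filters, all 24 libraries in 1 fit, the replicate number as a block, the study's rule of a fold of at least 2 with a raw p under 0.05, day-7 cells as the reference, and leaving out each library. Replicate numbers were taken as pairing where the deviations of same-numbered libraries correlated over 0.1 for all 3 numbers. This held for ND-646 against TVB-3166 (0.380, 0.213 and 0.292), bleomycin against day-7 (0.142, 0.117 and 0.107) and alisertib against day-7 (0.155, 0.218 and 0.105), and for no comparison with day-0 cells.

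Values in every library are given for the 8 cytosolic and 6 mitochondrial genes with the largest mean absolute log2 fold change over the 6 drugs, for up to 4 more called between lipogenesis inhibitors and the other drugs by smallest p, and for GARS1, KARS1 and WARS1. Up to 4 genes of each companion list are named by the same measure, plus ATF4. The members and lists were chosen with earlier results of these data known.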

Additional observations from a re-analysis of the deposited data

How the results depend on the processing

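With the rule of a fold of at least 2 and a raw p under 0.05, the genes called against day-0 cells dropped to 6 with ND-646, 2 with TVB-3166, 4 with bleomycin and 0 with alisertib, doxorubicin or palbociclib, and to 0 between the lipogenesis inhibitors and the other drugs and between bleomycin and doxorubicin, since this rule leaves out small changes. With day-7 cells as the reference, 3 genes were called with alisertib, 7 with doxorubicin and 11 with palbociclib. QARS1 changed sign there with bleomycin, from -0.29 to 0.0034 on the log2 scale, and was not called. DESeq2 called 2 genes between day-7 and day-0 cells, HARS1 and QARS1, and 1 between ND-646 and TVB-3166, WARS1. A fit of all 24 libraries called 1 gene between day-7 and day-0 cells, HARS1, and 3 between ND-646 and TVB-3166, RARS1, SARS1 and WARS1.

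With the replicate number as a block, 1 gene was called between ND-646 and TVB-3166, where the numbers paired the libraries. With day-7 cells as the reference, the block gave 6 genes with alisertib in place of 3. Where the libraries share only a number, the block gave 2 genes between day-7 and day-0 cells and 13 between bleomycin and doxorubicin. Against day-0 cells the block counts were 19 with ND-646, 24 with TVB-3166, 25 with bleomycin, 18 with alisertib, 16 with doxorubicin and 17 with palbociclib. These stayed within 1.5 times the counts without the block, as did the 24 between the lipogenesis inhibitors and the other drugs and the 33 for any difference.

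Leaving out 1 library at a time gave 15 to 30 genes with ND-646, the lowest without day-0 replicate 3 and the highest without ND-646 replicate 1. It gave 10 to 16 with alisertib, the lowest without alisertib replicate 3, and 0 to 2 between ND-646 and TVB-3166. Between bleomycin and doxorubicin the count ran from 0 to 10, with 3 without bleomycin replicate 2 and 0 without doxorubicin replicate 1 or 3. The genes that rose numbered 5 with alisertib without day-0 replicate 1, in place of 3, and 2 and 1 with palbociclib without its replicate 1 or 2, in place of 4. The genes that fell numbered 8 with alisertib without its replicate 3, in place of 13. Calls that held in every such fit were 14 of 22 with ND-646, 22 of 26 with TVB-3166, 18 of 25 with bleomycin, 10 of 16 with alisertib, 12 of 14 with doxorubicin, 13 of 17 with palbociclib and 18 of 23 between the lipogenesis inhibitors and the other drugs.

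The difference between the class medians moved by more than 1 SD in 10 of 83 alternatives. With the mean in place of the median it was 0.654 with ND-646, 0.359 with TVB-3166 and 0.531 with bleomycin, and without WARS1 it was 0.655 with ND-646. Against day-7 cells it was 0.620 with ND-646, 0.389 with TVB-3166, 0.599 with bleomycin and -0.0125 with alisertib. Leaving out 1 library gave 0.674 to 0.781 with bleomycin and 0.0346 to 0.140 with alisertib, the highest of each without day-0 replicate 1. Apart from the changes named here, the causes of which were not tested, the remaining 155 totals of called genes stayed within 1.5 times the reported ones, which does not hold for each class and direction. With 3 libraries a group the precision is set by the spread between libraries, and the depth of at least 29405121 reads left no synthetase gene under 153 reads.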
